A study of Mus musculus with 18 samples.

Results

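The 9 apolipoprotein genes Apoa1, Apoa2, Apoa4, Apoa5, Apob, Apoc1, Apoc2, Apoc3 and Apoe, together with Mttp, were followed in mouse liver. They were chosen by gene symbol and make 10 of the 32285 genes in the count table. Each symbol had 1 row, and all 10 were among the 13356 genes that passed the filter on low counts.

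The livers came from 3 groups of 6 mice, 1 library per mouse. Space pups were 10 weeks old and were fathered through germline stem (GS) cells, cultured spermatogonia from DBA/2 mice, whose storage in the frozen state took place aboard the International Space Station and lasted 6 months. Ground pups had the same age and came from GS cells stored for as long on Earth. In both cases the thawed cells were placed in the testes of W mice, whose own germ line is deficient, and the recipients were mated with C57BL/6 females. BDF1 wild-type mice were the controls, and their age is not stated in the labels. All animals carry the strain label B6D2F1 and a wild-type genotype label. Per the methods of the study, the GS cells descend from an EGFP transgenic line that was bred onto DBA/2, and the labels do not say which pups inherited it. The labels call the 6 mice of a group biological replicates and do not say which pups shared a father or a litter.

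Lipoproteins carry fat and cholesterol through the blood, and the liver makes most of their proteins. Apob is the structural protein of very-low-density lipoprotein (VLDL), and Mttp is the transfer protein that loads lipid onto it in the endoplasmic reticulum. Apoa1 and Apoa2 form the body of high-density lipoprotein (HDL). The smaller apolipoproteins move between particles and set how fast their fat is cleared: Apoc2 activates lipoprotein lipase, Apoc3 inhibits it, Apoa5 promotes its action, and Apoe is the ligand by which remnants are taken up.

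Groups were compared within replicates 1 to 3 and within replicates 4 to 6, because these sets differed in every group. Counts of Xist, the RNA that coats an inactive X chromosome, ran from 0 to 187 in the 9 libraries numbered 1 to 3 and from 12218 to 21557 in the 9 numbered 4 to 6. The summed counts of 4 Y-linked genes ran the other way, from 1822 to 2482 against 0 to 26. No label gives a sex, although mice of both were used according to the results text of the study. Total counts lay between 15407450 and 20562351. Alb, the albumin gene, took 17.6% to 24.1% of counts in the pup libraries 4 to 6, 6.72% to 8.03% in BDF1 4 to 6 and 4.47% to 6.45% in replicates 1 to 3. In Space replicate 4, Ground replicate 5 and Ground replicate 6, Serpina6, which encodes the corticosteroid carrier of plasma, took 3.43%, 3.41% and 2.18% of counts, and in the other 15 libraries at most 0.107%. Tests of the members within replicates 4 to 6, and calls between the sets, are given with and without these 3 libraries, and for the other genes the calls lost without them are named.

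The 10 genes held 4.05% to 5.36% of all counts in each library. Together with 6 hepatocyte markers that summed to between 59866 and 391599 CPM (counts per 10⁶ counts of the TMM-scaled library), this fits the tissue label of liver. Those 6 markers include Alb and reached 226679 to 286438 CPM in Space and 219539.8 to 391599 CPM in Ground replicates 4 to 6, against 80423 to 103113 CPM in BDF1. Intestine is another main source of Apoa1, Apoa4, Apob and Mttp. Of 9 intestinal markers, Cdx1, Cdx2, Cdh17, Sis and Alpi had no count in any library, and Fabp2, Vil1, Lgals4 and Muc2 had counts in every set. The summed level of all 9 was 59.1 to 160 CPM in Space replicates 4 to 6, 54.4 to 124 CPM in Ground and 48 to 62.8 CPM in BDF1, and came from the 4 markers with counts. Whether any of it came from intestine was not tested.

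Several of the genes lie side by side. On mm10, with GENCODE M21 models, Apoa1 (chr9:46228580-46230466), Apoc3 (chr9:46232933-46235636), Apoa4 (chr9:46240696-46243459) and Apoa5 (chr9:46268633-46271919) form a cluster, in which only Apoc3 is read from the minus strand. Apoc2 (chr7:19671579-19677941), Apoc1 (chr7:19689481-19692660) and Apoe (chr7:19696109-19699188) form another on the minus strand of chromosome 7, with Apoc4 (chr7:19678083-19681479) between Apoc2 and Apoc1. Apoa2 (chr1:171225054-171226379), Apob (chr12:7977648-8016835) and Mttp (chr3:138089854-138144968) stand apart. Apoa4 overlaps the antisense transcript Gm10680 and, also on the other strand, Gm47528, which has no row in the table, Apoa5 overlaps Gm47544, and Mttp overlaps Gm43691 and Trmt10a. The libraries were stranded but the strand setting of the counting is not given in the sources used here, so reads of such partners may not have been told apart. M21 also annotates Gm44805, which overlaps Apoc2 and Apoc4 on their own strand and has no row in the table, and how reads shared with it were counted is not stated either.

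Promoter sequence from RefSeq (GRCm38.p6, read on the strand of the gene) was matched by symbol for 8 of the 10 members, in 12 entries, and not for Apoc1 and Apoc3. The windows of 4 genes are printed because 3 of them (Apoa1, Apoa4 and Apoc2) had the largest differences from BDF1 and the other, Apoa5, sits in the same cluster as Apoa1 and Apoa4 without passing the test. They are Apoa1 at chr9:46228430-46228579, from 200 to 51 bases before the RefSeq start, Apoa4 at chr9:46240594-46240695, from 250 to 149 bases before it, Apoa5 at chr9:46268458-46268607 and Apoc2 at chr7:19677942-19678091, each from 150 to 1 bases before it. Bases inside the gene's own M21 model were left out. The 102 bases of the Apoa4 window are exonic in the M21 model of Gm47528, and the Apoc2 window lies inside the Gm44805 model without touching its exons and reaches 9 bases into the last exon of Apoc4. Capitals mark matches to the motifs searched.
Apoa1: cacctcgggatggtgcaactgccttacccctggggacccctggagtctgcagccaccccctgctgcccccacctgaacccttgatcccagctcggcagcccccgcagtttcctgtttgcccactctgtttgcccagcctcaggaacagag
Apoa4: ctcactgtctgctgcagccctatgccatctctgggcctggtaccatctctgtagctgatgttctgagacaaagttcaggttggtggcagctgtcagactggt
Apoa5: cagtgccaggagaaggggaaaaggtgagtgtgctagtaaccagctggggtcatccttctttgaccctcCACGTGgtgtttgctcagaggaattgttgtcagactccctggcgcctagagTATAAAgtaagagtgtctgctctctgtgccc
Apoc2: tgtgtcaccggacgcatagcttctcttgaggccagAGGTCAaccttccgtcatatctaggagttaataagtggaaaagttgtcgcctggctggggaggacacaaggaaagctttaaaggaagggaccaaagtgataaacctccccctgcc

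Exact letters were searched on both strands of the 250 bases before each start. The E-box CACGTG was in 6.02% of the 32851 promoters of the table and, among the members, in Apoa5, where it begins 82 bases before the start used for the printed window. The TATA box letters TATAAA were in 12.4% of promoters and in those of Apoa2, Apoa5, Apob and Apoe. AGGTCA, the repeated unit of many nuclear receptor sites, was in 14.0% of promoters and in those of Apoa2 and Apoc2, and was added after the values had been seen. The HNF4 core CAAAGTCCA (0.384% of promoters), the REV-ERB letters TAGGTCA (2.23%), which contain AGGTCA, and the D-box TTATGTAA (0.819%) were in no member's window. A match is a description of letters and not of binding.

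Per kilobase of exon, Apoa2 was the most abundant of the 10 in the control livers. In BDF1 replicates 4 to 6 its level was 10979 ± 1450.4 CPM per kb (SD, n = 3), followed by Apoe with 7803 ± 754, Apoc1 with 4269.5 ± 598 and Apoa1 with 3784 ± 494. The length used was every base that is exonic in any M21 transcript of the gene, 537 for Apoa2 and 2138 for Apoe. Such a length can exceed that of the mRNA present, and the order depends on it. Not divided by length, Apoe stood above Apoa2, with 16684 against 5896 CPM in BDF1 replicates 4 to 6. The ranges of Apoc1 and Apoa1 overlapped in these libraries, while those of Apoa2 and Apoe did not. Apoc3 came next with 1651 ± 123 CPM per kb. Apoa5 stood at 382 ± 36.0 and Apob, the longest transcript of the group, at 279.8 ± 58.7. Apoc2 with 189.5 ± 18.1, Apoa4 with 133 ± 21 and Mttp with 34.6 ± 5.84 CPM per kb closed the order. In BDF1 replicates 1 to 3 Apoa2 also led, with 9799 ± 1281 CPM per kb, and Mttp was again the lowest with 40.9 ± 3.9. There Apoa1 reached 6241 ± 1023 and overlapped Apoe at 6935 ± 410.3, so that Apoa1 and Apoc1 (3211 ± 343) no longer overlapped.

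**Figure D1:**
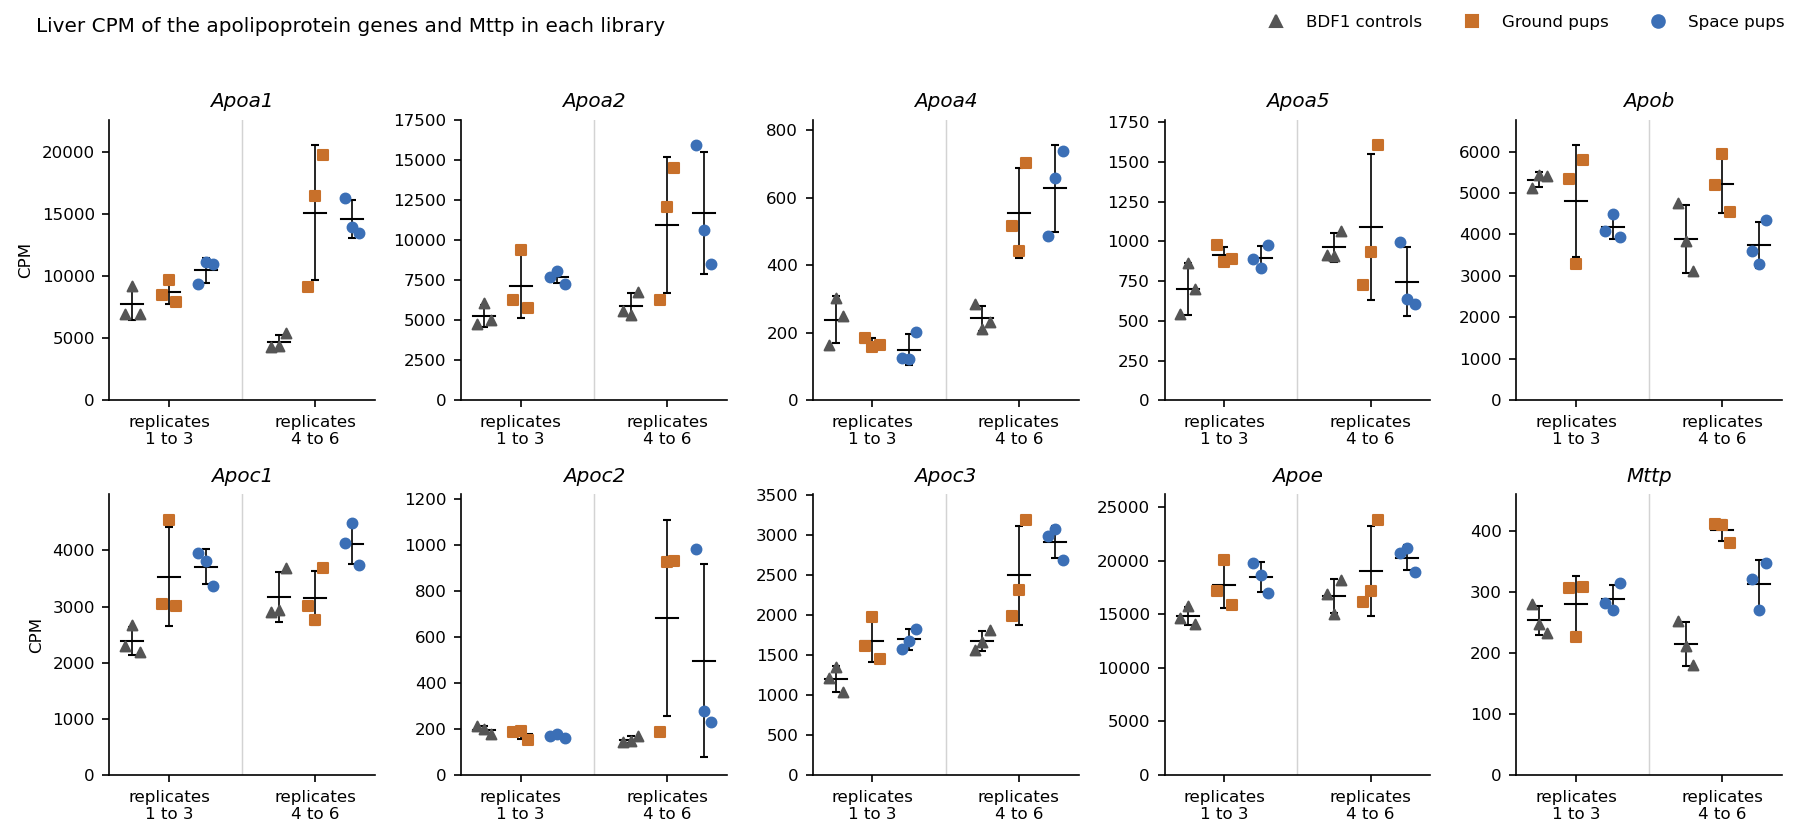
CPM of each of the 10 genes in each of the 18 liver libraries, with BDF1 as triangles, Ground pups as squares and Space pups as circles; the short bar is the mean and the whisker 1 SD (n = 3). In replicates 4 to 6 the pup libraries lie above all BDF1 libraries for Apoa1, Apoa4, Apoc2, Apoc3 and Mttp, and Apoc2 is between 927 and 984 CPM in 3 of them and at most 278 CPM in the others.

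The first question was whether freezing in space rather than on Earth left a mark on these genes in the offspring. No member passed an adjusted p under 0.05 (edgeR quasi-likelihood F-test, Benjamini-Hochberg over all genes tested) in any comparison of Space with Ground pups. In replicates 1 to 3, 0.00749% of all genes passed and no member had even an unadjusted p under 0.05, and DESeq2 and limma voom also called 0 members. Over all genes, where edgeR called 1, these tools called 47 and 483. The largest difference in this set was that of Apoa1, with 10471 ± 997 CPM in Space and 8682 ± 916 CPM in Ground pups (SD, n = 3), a log2 change of 0.27 with an interval (2 SE to either side) from -0.19 to 0.73. Among replicates 4 to 6, 0.0225% of all genes passed, and 4 members had an unadjusted p under 0.05. Apoa5 (log2 change -0.54, adjusted p = 0.345), Apob (-0.48, adjusted p = 0.32) and Mttp (-0.36, adjusted p = 0.298) had lower values in Space pups and Apoc1 (0.39, adjusted p = 0.354) a higher one. DESeq2 and limma voom called 0 members here too, and 129 and 0 of all genes, where edgeR called 3. For the difference of this change between the replicate sets edgeR called 0 members, 0 with an unadjusted p under 0.05, and 0% of all genes, and DESeq2 and limma voom called 0 members and 30 and 12 of all genes.

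The precision of this comparison differed from gene to gene. For Apoe in replicates 4 to 6 the interval of the log2 change ran from -0.27 to 0.45, and for Apoc3 from -0.12 to 0.57. For Apoc2 it ran from -1.43 to 0.52, so that a difference of over 2-fold between Space and Ground pups could not be told from none. Without the 3 libraries rich in Serpina6, which leaves 1 Ground library whose spread is assumed to be that of the others, 0 members and 1 of all genes passed in replicates 4 to 6. Apoc2 then turned from -0.46 to 0.42 (adjusted p = 0.355) and Apoa1 from -0.05 to 0.58 (adjusted p = 0.335), and Apoa2 went from 0.10 to 0.61 (adjusted p = 0.369) and Apoc3 to 0.53 (adjusted p = 0.338). Apoa5 was at -0.23 (adjusted p = 0.665), Apob at -0.45 (adjusted p = 0.524), Mttp at -0.42 (adjusted p = 0.445) and Apoc1 at 0.44 (adjusted p = 0.466), and Apoa4 (0.42, adjusted p = 0.589) and Apoe (0.31, adjusted p = 0.503) were higher in Space pups without passing. With both replicate sets averaged, 0 members were called by edgeR, DESeq2 and limma voom, 1 had an unadjusted p under 0.05, and 0.0225% of all genes were called by edgeR (3 genes, against 279 with DESeq2 and 557 with limma voom). That member was Apob, with a log2 change of -0.34 ± 0.15 (SE) and an adjusted p of 0.265.

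The second question was how either kind of pup compared with wild-type mice. In replicates 4 to 6, Apoa1, Apoa2, Apoa4, Apoc2, Apoc3 and Mttp rose in Space pups against BDF1 and the same 6 rose in Ground pups, while Apoa5, Apob, Apoc1 and Apoe did not pass in edgeR. Of all genes tested, 11.9% passed in Space and 15.2% in Ground pups, and 6.43% and 7.86% passed and were higher in pups. DESeq2 called 6 members in each kind of pup, and limma voom 7 in Space and 6 in Ground pups. Over all genes DESeq2 called 2118 and 2418 and limma voom 2484 and 2167. Both comparisons use the same 3 BDF1 libraries, so their likeness is not independent evidence. The median log2 change of the 10 was 0.67 in Space and 0.73 in Ground pups, against 0.01 over all genes in both. These livers are bulk tissue, in which fewer cells of a type and less RNA per cell cannot be told apart. The scaling matters here. When libraries were scaled by total counts alone, without TMM factors, the median of all genes moved to -0.39 in Space and -0.46 in Ground pups, and the share of called genes that were higher went from 54% to 6.77% and from 51.7% to 6.55%.

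**Figure D2:**
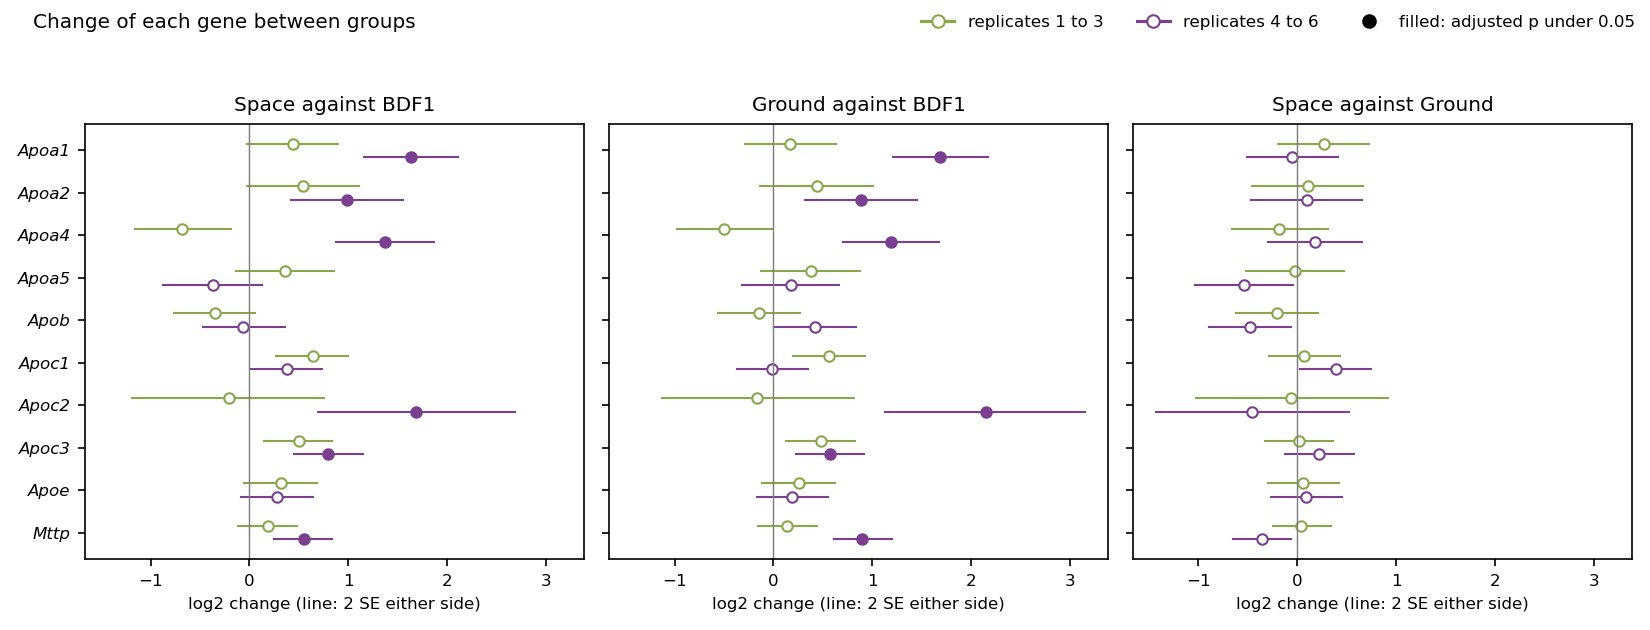
Log2 change of each of the 10 genes in the 3 comparisons of groups, with green for replicates 1 to 3 and purple for replicates 4 to 6; lines reach 2 SE to either side and filled points have an adjusted p under 0.05. Filled points occur only in replicates 4 to 6 against BDF1, for 6 genes in each kind of pup, and none occurs between Space and Ground pups.

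Among the assembly genes, Mttp rose and Apob did not pass in edgeR. Mttp was at 252, 212 and 179.6 CPM in BDF1 replicates 4, 5 and 6, at 412, 409.9 and 381 CPM in the Ground pups and at 322, 271 and 348 CPM in the Space pups. All 6 pup libraries lay above the 3 BDF1 libraries, and the Ground and Space libraries did not overlap each other. The log2 change was 0.90 ± 0.15 (SE) in Ground pups (adjusted p = 0.00108, edgeR) and 0.55 ± 0.15 in Space pups (adjusted p = 0.0258). With total counts these fell to 0.43 (adjusted p = 0.067) and 0.14 (adjusted p = 0.58), so that neither passed, and with total counts without the 10 most abundant genes the Space call was lost (0.39, adjusted p = 0.133). Without the 3 libraries rich in Serpina6 the change was 0.95 in Ground pups, from the 1 library left (adjusted p = 0.0144), and 0.52 in Space pups (adjusted p = 0.0628), and the Space call was also lost without Space replicate 4 or 6 or BDF1 replicate 5 or 6 (0.43 to 0.68 over all such fits, adjusted p up to 0.0944) and with the set fitted alone (0.54, adjusted p = 0.0884). Mttp of replicates 1 to 3 ranged from 233 to 280.2 CPM in BDF1, 227 to 308 CPM in Ground and 271 to 314 CPM in Space pups.

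Apob was at 4748, 3835 and 3114 CPM in BDF1 replicates 4, 5 and 6, at 5186, 5941 and 4542 CPM in Ground and at 3603, 3290.5 and 4355 CPM in Space pups. The groups overlapped, and the log2 change was 0.42 ± 0.21 in Ground pups (adjusted p = 0.181) and -0.06 ± 0.21 in Space pups (adjusted p = 0.886). These were 0.42 (adjusted p = 0.397, from 1 Ground library) and -0.03 (adjusted p = 0.948) without the libraries rich in Serpina6. For replicates 1 to 3 the 3 Space libraries, from 3928 to 4492 CPM, lay below the 3 BDF1 libraries, from 5112 to 5425 CPM, without passing the test (a difference of -0.35, adjusted p = 0.378).

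Of the HDL proteins, Apoa1 had the firmest change. It was at 4288, 4364 and 5381 CPM in BDF1 replicates 4, 5 and 6, at 9125, 16416 and 19761 CPM in Ground pups and at 16305, 13911 and 13503 CPM in Space pups. Every pup library was above every BDF1 library. The rise was 3.12-fold in Space pups (1.64 ± 0.24 on the log2 scale, adjusted p = 0.000814) and 3.23-fold in Ground pups (1.69 ± 0.24, adjusted p = 0.000424). Without the 3 libraries rich in Serpina6 it was 1.55 (adjusted p = 7.29e-05) and, with a single Ground library left whose spread is assumed to be that of the others, 0.97 (adjusted p = 0.00879). The Apoa1 values of replicates 1 to 3 were 6984, 9175 and 6985 CPM in BDF1, 8451, 9691 and 7904 CPM in Ground and 9327, 11147 and 10939.9 CPM in Space pups. The Space libraries were above the BDF1 libraries there as well, and the difference of 0.44 did not pass (adjusted p = 0.317).

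The controls themselves differed between the sets. Within BDF1, Apoa1 was lower in replicates 4 to 6 than in replicates 1 to 3, by -0.72 ± 0.23 (adjusted p = 0.0472), the 1 member that edgeR called in that comparison, in which 14.6% of all genes passed. Of 18 fits that each omitted 1 library it passed in 6, with values from -0.83 to -0.58, and omitting any BDF1 library, Space replicate 1, 2, 3, 5 or 6 or Ground replicate 1 ended it. It passed with DESeq2 (adjusted p = 0.00696), limma voom (-0.77, adjusted p = 0.00141) and without the 3 libraries rich in Serpina6 (-0.72, adjusted p = 0.00232). DESeq2 also called Apoc3 (0.49) within BDF1, limma voom also Apoc3 (0.48), Apoc1 (0.36) and Apob (-0.45), and the fit without those 3 libraries also Apoc3 (0.49), Apoa5 (0.46) and Apoc2 (-0.35). Over all genes these fits called 2330, 3755 and 2844, in that order. Within Ground pups Apoa1 was higher in replicates 4 to 6, by 0.80 ± 0.23 (adjusted p = 0.0245), which became 0.08 (adjusted p = 0.859) without the 3 libraries rich in Serpina6 and did not pass without Ground replicate 1, 3, 5 or 6. In Space pups the corresponding change was 0.48 (adjusted p = 0.157) and, without those 3 libraries, 0.40 (adjusted p = 0.0772).

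Apoa2, the other main HDL protein, moved less evenly. It was at 5597, 5310.3 and 6779.8 CPM in BDF1 replicates 4, 5 and 6, at 6265, 12054 and 14489 CPM in Ground pups and at 15911, 10643 and 8529.7 CPM in Space pups. Ground replicate 4 lay among the BDF1 libraries, while the Space libraries were all above them. The log2 change was 0.99 ± 0.29 in Space pups (adjusted p = 0.0347) and 0.89 ± 0.29 in Ground pups (adjusted p = 0.0445). Without the 3 libraries rich in Serpina6 the Space value was 0.70 (adjusted p = 0.0331) and the Ground value, from 1 library, 0.09 (adjusted p = 0.871). Omitting 1 library at a time, the Space call was lost without Space replicate 4 or 5 or BDF1 replicate 4 or 5 (0.70 to 1.17 over all fits), and the Ground call passed in only 6 of 18 fits (0.64 to 1.17), being lost without Ground replicate 1, 5 or 6, BDF1 replicate 2, 3, 4, 5 or 6 or Space replicate 1, 2, 3 or 5. With total counts the Ground value was 0.36 and did not pass (adjusted p = 0.161). With the set fitted alone neither passed (0.98, adjusted p = 0.119, and 0.89, adjusted p = 0.13). Apoa2 of replicates 1 to 3 ranged from 4741 to 6041 CPM in BDF1, 5729 to 9387 CPM in Ground and 7283 to 8050.5 CPM in Space pups, and no difference passed.

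Apoa4, a protein of chylomicrons and HDL that mouse liver also makes, behaved differently in the replicate sets. In replicates 4 to 6 it was at 285, 210.5 and 232 CPM in BDF1, at 517, 443 and 703 CPM in Ground and at 487, 658 and 738 CPM in Space pups. The replicates 1 to 3 were at 165, 302 and 249 CPM in BDF1, at 185, 158 and 164 CPM in Ground and at 125, 121 and 202 CPM in Space pups. All 6 pup libraries lay above the controls in the set 4 to 6, and 4 of 6 lay below all controls in the set 1 to 3. The log2 change against BDF1 was 1.37 ± 0.25 (adjusted p = 0.00274) in Space and 1.19 ± 0.24 (adjusted p = 0.00437) in Ground pups in replicates 4 to 6, but -0.68 (adjusted p = 0.129) and -0.50 (adjusted p = 0.329) in replicates 1 to 3. The change differed between the sets by 2.05 ± 0.34 in Space pups (adjusted p = 0.00426) and by 1.69 ± 0.34 in Ground pups (adjusted p = 0.016, and 0.0508 without BDF1 replicate 6). Without the libraries rich in Serpina6 the changes in replicates 4 to 6 were 1.52 in Space (adjusted p = 0.00157) and 1.1 in Ground pups, from 1 library (adjusted p = 0.0316), and the differences between the sets were 2.21 (adjusted p = 0.00133) and 1.59 (adjusted p = 0.0372). Apoa4 was higher in replicates 4 to 6 than in 1 to 3 within Space pups (2.07, adjusted p = 2.4e-05) and within Ground pups (1.71, adjusted p = 0.000144), whereas in BDF1 the change was 0.02 (adjusted p = 0.966). Gm10680, antisense to Apoa4, had 2.53 to 3.06 CPM in Space, 1.18 to 3.73 CPM in Ground and 0.706 to 0.837 CPM in BDF1 replicates 4 to 6.

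Apart from Apoa4, the edgeR test of the difference between the sets called only Apoa1 in Ground pups (1.52 ± 0.33, adjusted p = 0.0221). That call was lost without BDF1 replicate 2 or 5 (adjusted p up to 0.0639) and without the libraries rich in Serpina6 (0.80, from 1 Ground library). For Apoa1 in Space pups the edgeR test gave 1.20 ± 0.33 (adjusted p = 0.0563), for Mttp in Ground pups 0.76 ± 0.21 (adjusted p = 0.0629) and for Apoc2 in Ground pups 2.30 ± 0.70 (adjusted p = 0.0887). In all, edgeR called 1 member for Space and 2 for Ground pups, against 3.19% and 2.74% of all genes (426 and 366). DESeq2 called 2 and 4 members and 849 and 782 of all genes. Limma voom called 2 and 3 members and 1515 and 739 of all genes, and total counts 3 and 3 members and 539 and 1499. Omitting the libraries rich in Serpina6 left 4 members called for Space pups, Apoa4, Apoa1 (1.12, adjusted p = 0.00581), Apoc2 (0.95, adjusted p = 0.00496) and Apoa5 (-0.98, adjusted p = 0.0156), and for Ground pups, from 1 library, Apoa4 alone, with 0.80 for Mttp (adjusted p = 0.135) and 0.45 for Apoc2 (adjusted p = 0.264). For the other members a call in 1 set of replicates and none in the other is not shown by edgeR to be a difference between the sets.

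The lipase regulators Apoc2 and Apoc3 rose in replicates 4 to 6, and Apoc2 did so mostly in 3 libraries. It was at 984 CPM in Space replicate 4, 927 CPM in Ground replicate 5 and 933 CPM in Ground replicate 6, against 278 and 232 CPM in Space replicates 5 and 6, 189 CPM in Ground replicate 4 and 145, 146 and 171 CPM in BDF1. All 9 libraries of replicates 1 to 3 lay between 153 and 212 CPM. The 3 high libraries are those in which Serpina6 took over 2% of counts, and they belong to both kinds of pup. Against BDF1 the difference in Apoc2 came to 1.69 ± 0.50 in Space pups (adjusted p = 0.0381) and 2.15 ± 0.51 in Ground pups (adjusted p = 0.01). Without those 3 libraries it was 0.72 in Space pups (adjusted p = 0.00316) and 0.30 in Ground pups from the 1 library left (adjusted p = 0.281). The Space call was lost without Space replicate 4 (0.73, adjusted p = 0.297) or any 1 of the BDF1 replicates 4, 5 and 6, and the Ground call held in all 18 such fits (1.86 to 2.59). With the set fitted alone both were lost (1.68, adjusted p = 0.149, and 2.14, adjusted p = 0.0744). Apoc4, the neighbour upstream of Apoc2, did not follow: it was at 609.9 to 895 CPM in Space, 502 to 829.9 CPM in Ground and 525 to 689 CPM in BDF1 replicates 4 to 6 and passed in no comparison of groups. Apoc4 was chosen after its values had been seen.

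**Figure D3:**
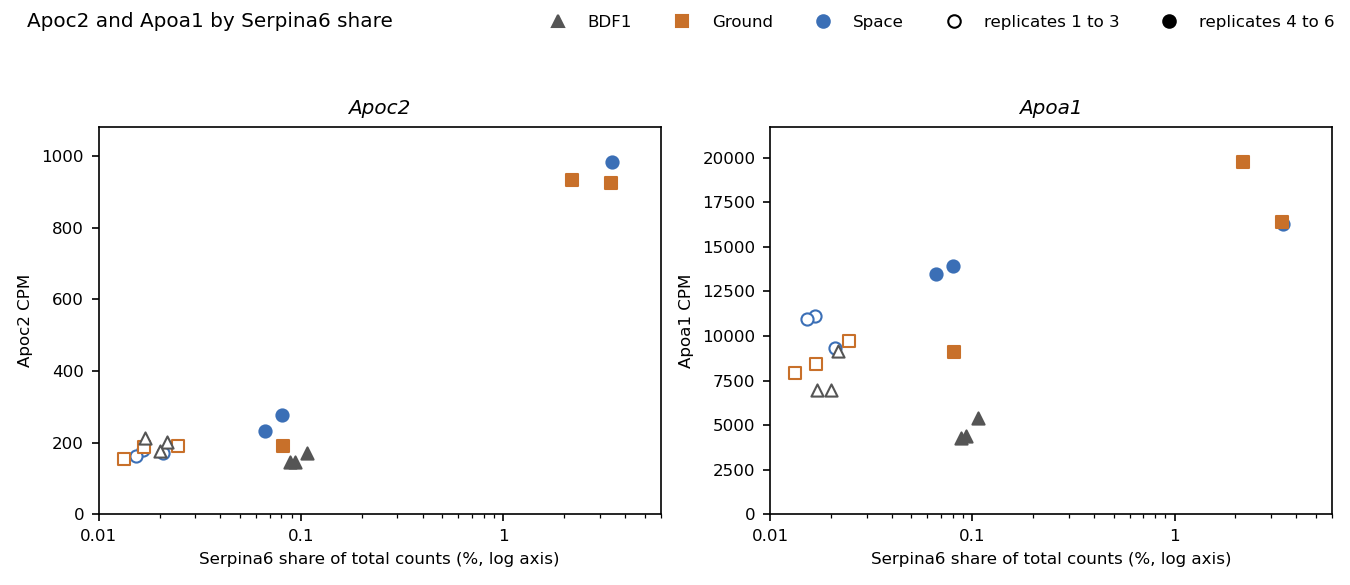
CPM of Apoc2 (left) and Apoa1 (right) in each library against the share of its total counts taken by Serpina6, on a log axis, with filled symbols for replicates 4 to 6. Space replicate 4 and Ground replicates 5 and 6 stand apart at the right, with Apoc2 between 927 and 984 CPM, and all other libraries are at or below 278 CPM. For Apoa1 the Space libraries with little Serpina6 are also above the BDF1 libraries.

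Apoc3 was at 1555, 1665 and 1804 CPM in BDF1 replicates 4, 5 and 6, at 1984, 2309 and 3185 CPM in Ground and at 2977, 3068 and 2688 CPM in Space pups. No pup library overlapped the controls, and the 3 Space libraries were close together. The log2 change was 0.80 ± 0.17 in Space (adjusted p = 0.00854) and 0.57 ± 0.17 in Ground pups (adjusted p = 0.0344). With total counts it was 0.40 in Space pups (adjusted p = 0.0398) and 0.07 in Ground pups, where it no longer passed (adjusted p = 0.701). Without the libraries rich in Serpina6 it was 0.78 in Space (adjusted p = 0.00448) and 0.25 in Ground pups, from 1 library (adjusted p = 0.453), and the Ground call was lost without Ground replicate 6 or BDF1 replicate 4, 5 or 6 as well (0.36 to 0.71), with no filter on low counts (0.56, adjusted p = 0.0525) and with total counts without the 10 most abundant genes (0.39, adjusted p = 0.0866). With the set fitted alone neither passed (0.79, adjusted p = 0.0502, and 0.57, adjusted p = 0.101). Within replicates 1 to 3 the changes were of the same sign, 0.50 in Space (adjusted p = 0.118) and 0.48 in Ground pups (adjusted p = 0.174), with 1034 to 1351 CPM in BDF1 against 1570.4 to 1828 CPM in Space and 1443 to 1967 CPM in Ground pups.

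Apoa5 did not pass in either kind of pup in edgeR with TMM scaling and all libraries. It was at 914, 907 and 1068 CPM in BDF1 replicates 4, 5 and 6, at 725, 934 and 1605 CPM in Ground and at 995, 639.6 and 606 CPM in Space pups. The groups overlapped, and the log2 change was -0.37 ± 0.25 in Space (adjusted p = 0.347) and 0.18 ± 0.25 in Ground pups (adjusted p = 0.676). In Space pups it became a fall of -0.79 with total counts (adjusted p = 0.00627) and of -0.63 without the libraries rich in Serpina6 (adjusted p = 0.0245). In Ground pups its sign turned with the scaling, to -0.35 with total counts (adjusted p = 0.14), and it was -0.40 without the libraries rich in Serpina6 (adjusted p = 0.26, from 1 library).

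Apoe and Apoc1, which act on remnant uptake, did not pass in the comparisons within a set in edgeR with TMM scaling and all libraries. Apoe, the most counted member, was at 16877, 14983 and 18191 CPM in BDF1 replicates 4, 5 and 6, at 16134, 17168 and 23799.6 CPM in Ground and at 20689, 21173 and 18964 CPM in Space pups. The Space libraries were above the controls and the Ground libraries among or above them, with log2 changes of 0.28 (adjusted p = 0.319) and 0.19 (adjusted p = 0.514), which turned to -0.12 and -0.30 with total counts and were 0.26 (adjusted p = 0.232) and, from 1 library, -0.04 (adjusted p = 0.923) without the libraries rich in Serpina6. Apoc1 was at 2909, 2930.2 and 3689.9 CPM in BDF1, at 3009.9, 2759 and 3683 CPM in Ground and at 4138, 4484 and 3741 CPM in Space replicates 4 to 6, with log2 changes of 0.38 in Space (adjusted p = 0.179) and -0.01 in Ground pups (adjusted p = 0.974). With total counts Apoc1 was lower in Ground pups by -0.49 (adjusted p = 0.0277), and without the libraries rich in Serpina6 the values were 0.37 (adjusted p = 0.199) and -0.07 (adjusted p = 0.896, from 1 library). Within replicates 1 to 3 Apoc1 gave the smallest p of the members, with 2190.2 to 2677 CPM in BDF1 against 3361 to 3957 CPM in Space and 3003 to 4544 CPM in Ground pups. Its log2 change was 0.64 ± 0.18 in Space (adjusted p = 0.0581) and 0.56 ± 0.18 in Ground pups (adjusted p = 0.124).

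For the set of replicates 1 to 3, then, 0 members passed against BDF1 in edgeR, where 4.64% of all genes passed in Space and 1.92% in Ground pups. An unadjusted p under 0.05 was found for Apoa4, Apoc1 and Apoc3 in Space pups and for Apoc1 and Apoc3 in Ground pups. DESeq2 called 2 members in Space and 1 in Ground pups, all higher, and limma voom called 4 in Space pups, 3 higher and 1 lower, and 0 in Ground pups. Over all genes DESeq2 called 990 and 616 and limma voom 2369 and 1097. With both sets averaged, 5 members passed in Space pups against 12.9% of all genes and 4 in Ground pups against 14.6%. Apoa1 (1.04 and 0.93), Apoa2 (0.77 and 0.66), Apoc3 (0.65 and 0.53) and Mttp (0.37 and 0.52) were among them in both, and Apoc1 (0.51, adjusted p = 0.0175) in Space pups. Apoa4, with opposite signs in the sets, averaged 0.35 in both and did not pass. The Space count was 3 without Space replicate 4 or BDF1 replicate 5. Without the libraries rich in Serpina6, Mttp no longer passed in Space (0.35, adjusted p = 0.0538) and Apoa2 no longer in Ground pups (0.27, adjusted p = 0.267).

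Between the replicate sets of one group, 3 members passed in Space pups (Apoa4, Apoc2 and Apoc3, all higher in replicates 4 to 6) where 21.9% of all genes passed, and 5 in Ground pups (Apoa1, Apoa4, Apoc2, Apoc3 and Mttp, all higher) where 18.3% passed. Without the libraries rich in Serpina6, Apoa4 alone of these 5 passed in Ground pups, from 1 library (1.62, adjusted p = 0.00171), while Apoc2 was at 0.10 (adjusted p = 0.767), Apoc3 at 0.25 (adjusted p = 0.432) and Mttp at 0.56 (adjusted p = 0.1). In Space pups Apoa4 (2.23), Apoc2 (0.59) and Apoc3 (0.78) then still passed, and Apoa5 passed as well, as a fall (-0.52, adjusted p = 0.0315), where 3170 of all genes passed. The Space call of Apoc2 was lost without Space replicate 1, 2, 3 or 4 (0.58 to 1.89), and between 2 and 6 members passed in Ground pups when 1 library was omitted, 2 without Ground replicate 3 or 6 and 3 without Ground replicate 1 or 5. The sets were defined with Xist and Y-linked counts known, and whatever else differs between them cannot be told apart from it.

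The share of each member within the 10 needs no scaling between libraries. Apoa1 made 11.4% to 13.3% of the members' counts in BDF1 replicates 4 to 6, 21% to 27.7% in Ground and 23.8% to 25.1% in Space pups, while in replicates 1 to 3 it made 19.2% to 23.8% in all groups. Apoe made 43.4% to 44.9% in BDF1 replicates 4 to 6 against 28.9% to 37.0% in Ground and 31.2% to 36.2% in Space pups. Set against Apoe in the same library, the log2 ratio of Apoa1 was -1.84 ± 0.12 (SD, n = 3) in BDF1, -0.39 ± 0.39 in Ground and -0.48 ± 0.13 in Space replicates 4 to 6. In replicates 1 to 3 it was -0.95 ± 0.15 in BDF1, -1.03 ± 0.02 in Ground and -0.82 ± 0.23 in Space pups, so that in the set 4 to 6 the controls lay lower and both kinds of pup higher than their own replicates 1 to 3. In BDF1, Ground and Space replicates 4 to 6 the ratio of Apoa4 was -6.11 ± 0.21, -5.11 ± 0.16 and -5.03 ± 0.36, and that of Apoc3 -3.31 ± 0.14, -2.94 ± 0.07 and -2.80 ± 0.02. Either gene of a ratio may have moved.

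**Figure D4:**
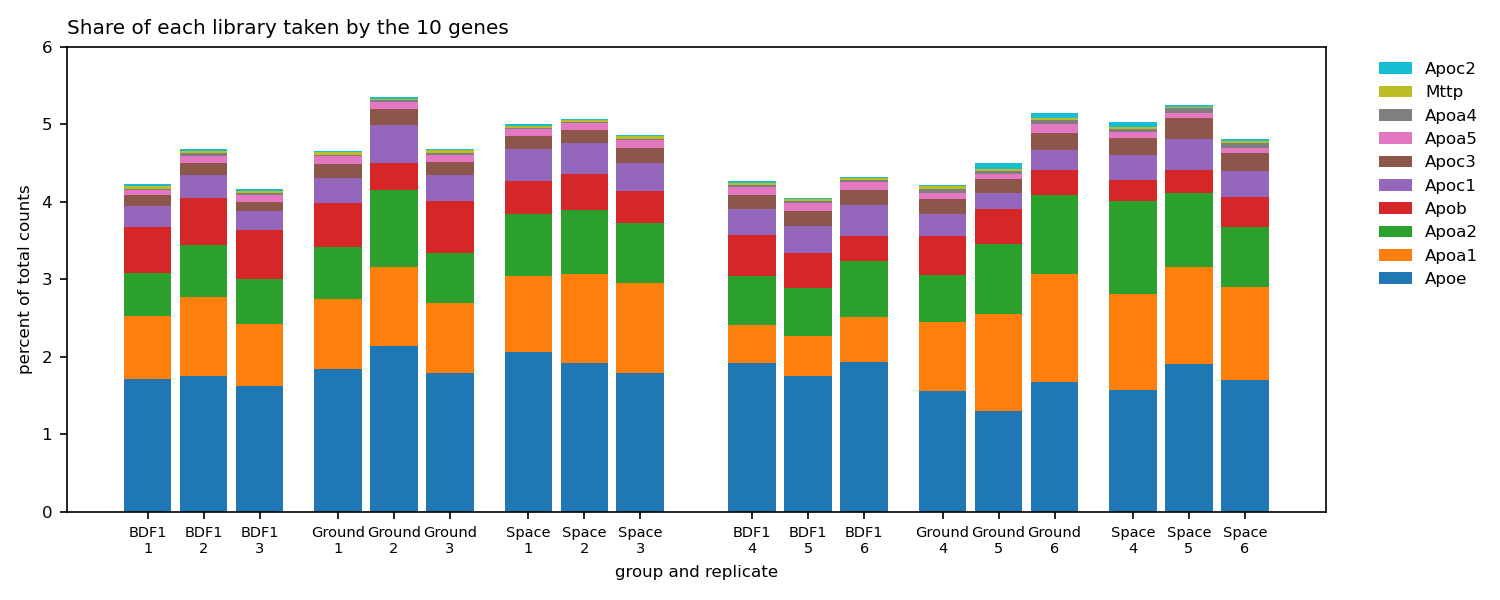
Percent of the total counts of each library taken by the 10 genes, stacked by gene and ordered by replicate set, group and replicate number. The full height lies between 4.05% and 5.36%, and the orange Apoa1 segment is smaller in BDF1 replicates 4 to 6 than in the other libraries.

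How members varied from mouse to mouse was described after each of the 6 sets of 3 libraries had been centred on its mean log2 CPM. Over these 18 values, which share libraries and scaling, Apoa1 went with Apoa2 (Pearson r = 0.889, Spearman rho = 0.723), Apoc3 (0.824 and 0.765) and Apoc2 (0.789 and 0.688). Apob went with Mttp (0.792 and 0.655) and against Apoc1 (-0.834 and -0.73). Apoa4 went with no member above 0.369. Among the 7473 genes that averaged 10 CPM or more, the pattern most like that of Apoc2 was found for Asgr2 (r = 0.986), a subunit of the asialoglycoprotein receptor, and Serpina6 (0.983). For Apoa1 these were 2010315B03Rik (0.95) and Rps28 (0.939), for Apoa2 Mrpl52 (0.978) and Fetub (0.969), and for Apoa4 Dapk1 (0.872) and Dnmbp (0.808). Apoa5 was closest to Gm2788 (0.923) and Gm30262 (0.913), Apob to Etnk1 (0.943) and Ncor1 (0.941), and Apoc1 to Ttc36 (0.95) and Ppcdc (0.934). Apoc3 was closest to Fbp1 (0.913), the gluconeogenic enzyme, and Masp2 (0.91), Apoe to U2af1 (0.926) and Proc (0.922), and Mttp to Neo1 (0.955) and Tmem131 (0.919).

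Some of these values rest on the libraries rich in Serpina6. Without them, over the 14 libraries that can still be centred, Apoc2 had an r of 0.89 with Asgr2 and of 0.606 with Serpina6. The r of Apoa1 was 0.758 with Apoa2, 0.814 with Apoc3 and 0.536 with Apoc2, and that of Apob was 0.815 with Mttp and -0.82 with Apoc1. Apoa4 then went with Apoa5 (0.753). The other genes named as most alike had values between 0.763 and 0.961 there, and Mttp with Neo1 had the highest.

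The other genes of lipoprotein metabolism were read from lists. Of 14 further genes of VLDL assembly and secretion, 1 rose and 1 fell in Space and 3 rose and 3 fell in Ground pups against BDF1 in replicates 4 to 6, where 11.9% and 15.2% of all genes passed. Sort1, a sorting receptor that binds Apob, fell from 27 ± 4.07 CPM in BDF1 to 7.91 ± 1.01 CPM in Space (log2 change -1.78 ± 0.30, adjusted p = 0.00192) and 10.2 ± 7.01 CPM in Ground pups (-1.41, adjusted p = 0.00472). It was also lower in Ground replicates 1 to 3 (-1.34, adjusted p = 0.0232). Sar1b, the coat protein GTPase needed to export large lipoproteins, rose from 113 ± 8.95 to 181 ± 29.0 CPM in Space (0.68, adjusted p = 0.00341) and 161 ± 21.3 CPM in Ground pups (0.51, adjusted p = 0.0124). P4hb (0.67), the partner subunit of Mttp, and Pla2g12b (0.47) rose in Ground pups and Dgat1 (-0.33) and Tmem41b (-0.61) fell. Within replicates 1 to 3, Aadac, a lipid hydrolase of the endoplasmic reticulum, rose in Space (0.80, adjusted p = 0.0046) and Ground pups (0.62, adjusted p = 0.0307), with Sar1b (0.46) in Space and Ces1d (0.66) in Ground pups. P4hb, Pla2g12b, Dgat1, Tmem41b and Ces1d are outside the rule for named genes and were chosen after their values had been seen. The Ground calls of P4hb (0.09), Pla2g12b (0) and Dgat1 (-0.37, adjusted p = 0.123) were lost without the libraries rich in Serpina6, and with total counts those of P4hb (0.15), Pla2g12b (-0.03), Ces1d (0.59) and, in all 3 comparisons, Sar1b (0.06 to 0.33). With the set fitted alone P4hb, Pla2g12b, Dgat1 and Sar1b did not pass in Ground replicates 4 to 6 (adjusted p from 0.0816 to 0.148), and Dgat1 did not with limma voom (adjusted p = 0.0576).

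Of 7 genes of HDL formation and plasma remodelling, 1 rose and 1 fell in Space and 2 rose and 2 fell in Ground replicates 4 to 6 (11.9% and 15.2% of all genes passed). Pltp, which moves phospholipid between lipoproteins, rose from 15.1 ± 3.11 CPM in BDF1 to 114 ± 54.3 CPM in Space (2.91 ± 0.40, adjusted p = 0.00061) and 52.9 ± 31.6 CPM in Ground pups (1.81, adjusted p = 0.00613). Lipg, endothelial lipase, fell in both (-1.27, adjusted p = 0.0289, and -1.26, adjusted p = 0.0235). Lcat, which esterifies the cholesterol of HDL and is activated by Apoa1, rose in Ground pups (0.65, adjusted p = 0.016), where Scarb1 (-0.54), an HDL receptor chosen after its values had been seen, fell. Within replicates 1 to 3, where 4.64% of all genes passed in Space and 1.92% in Ground pups, none rose and 1 fell, Scarb1 in Space pups (-0.52, adjusted p = 0.0342). Within BDF1, Lipg was higher in replicates 4 to 6 than in 1 to 3 (1.36, adjusted p = 0.0153), and the changes of Pltp (0.64) and Lcat (0.18) did not pass. Without the libraries rich in Serpina6 the Ground calls of Lcat (0.15), Lipg (-0.92, adjusted p = 0.17) and Scarb1 (-0.43, adjusted p = 0.0663) were lost, and with total counts those of Lcat (0.14) and of Scarb1 in Space replicates 1 to 3 (-0.65, adjusted p = 0.0741). With the set fitted alone Lipg did not pass in Space (adjusted p = 0.0894) or Ground pups (adjusted p = 0.0763), and Lcat (adjusted p = 0.0801) and Scarb1 (adjusted p = 0.0878) did not in Ground replicates 4 to 6.

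Among genes of lipoprotein uptake, Vldlr, a receptor that takes up lipoproteins carrying Apoe, fell in Ground replicates 4 to 6 (-1.58 ± 0.46, adjusted p = 0.0298), and Lrpap1, a chaperone of such receptors, rose by 0.37 in Space and 0.35 in Ground pups. Within BDF1, Vldlr was higher in replicates 4 to 6 than in 1 to 3 (3.42 ± 0.52, adjusted p = 0.000341). For replicates 1 to 3, Lrp1 (-0.58), a remnant receptor, fell in Space pups. Lrpap1 and Lrp1 were chosen after their values had been seen. Neither Vldlr (-0.8, adjusted p = 0.389) nor Lrpap1 (0.29, adjusted p = 0.109) passed in Ground pups without the libraries rich in Serpina6, and with total counts Lrpap1 turned to -0.03 in Space and -0.12 in Ground pups. Fitted with its set alone, Vldlr did not pass (adjusted p = 0.0725), nor did Lrpap1 in Space (adjusted p = 0.0636) or Ground pups (adjusted p = 0.0546).

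Among lipases and their regulators, Angptl4, a secreted inhibitor of lipoprotein lipase, rose in replicates 4 to 6 from 27.8 ± 10.8 CPM in BDF1 to 152 ± 50.6 CPM in Space (2.45 ± 0.30, adjusted p = 0.000242) and 168 ± 60.3 CPM in Ground pups (2.59 ± 0.30, adjusted p = 9.14e-05). It also rose in replicates 1 to 3, by 1.38 in Space (adjusted p = 0.0121) and 1.24 in Ground pups (adjusted p = 0.0329). Lpl, the lipase itself, rose in Ground replicates 4 to 6 (2.16 ± 0.55, adjusted p = 0.0156), but not with the set fitted alone (2.16, adjusted p = 0.0733). Lmf1 (0.37), which matures it and was chosen after its values had been seen, rose in Space pups. Within BDF1, Angptl4 was lower in replicates 4 to 6 than in 1 to 3 (-1.49, adjusted p = 0.00247), whereas its changes within Space (-0.42) and Ground pups (-0.14) did not pass. Angptl8 fell in Space replicates 1 to 3 (-1.26 ± 0.31, adjusted p = 0.0296). Lmf1 did not pass without the libraries rich in Serpina6 (0.35, adjusted p = 0.0639) or with the set fitted alone (adjusted p = 0.138) and turned to -0.03 with total counts.

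**Figure D5:**
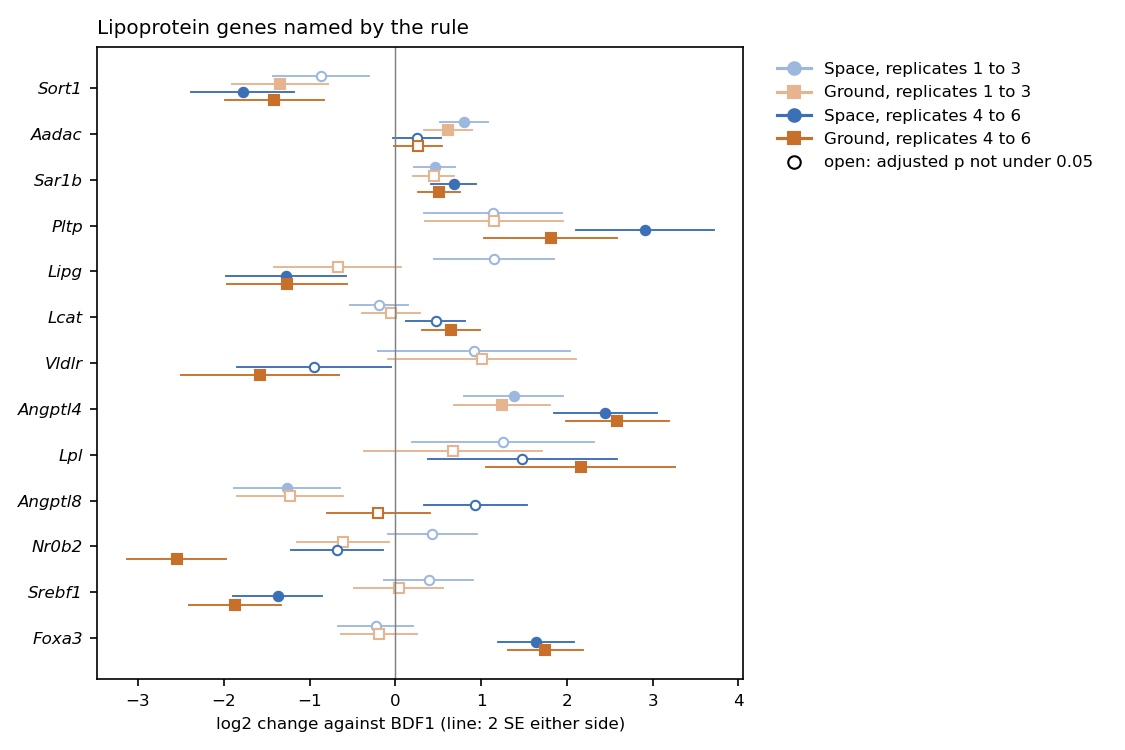
Log2 change against BDF1 of 13 genes that the fixed rule named from the lists, for Space (circles) and Ground pups (squares) in replicates 1 to 3 (pale) and 4 to 6 (dark); lines reach 2 SE to either side and open symbols did not pass. Angptl4 is filled in all 4 comparisons, and Srebf1 and Foxa3 are filled only in replicates 4 to 6.

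Among transcriptional regulators, Srebf1, which drives lipid synthesis genes, fell in replicates 4 to 6 from 560.4 ± 94.6 CPM in BDF1 to 217 ± 70.1 CPM in Space (-1.37, adjusted p = 0.0042) and 153 ± 7.10 CPM in Ground pups (-1.87, adjusted p = 0.000453). Foxa3, a hepatocyte forkhead factor, rose from 22.8 ± 0.328 CPM to 71.5 ± 11.8 CPM in Space (1.64, adjusted p = 0.000559) and 76.8 ± 26.9 CPM in Ground pups (1.75, adjusted p = 0.000237). The controls differed between the sets for both genes. Within BDF1, Srebf1 was higher in replicates 4 to 6 than in 1 to 3 (1.36, adjusted p = 0.00234) and Foxa3 lower (-1.29, adjusted p = 0.00101), while within Space pups the changes of Srebf1 (-0.40) and Foxa3 (0.58) did not pass and within Ground pups that of Srebf1 (-0.55) did not and that of Foxa3 did (0.65, adjusted p = 0.0467). Nr0b2, the corepressor SHP, fell in Ground pups (-2.55 ± 0.29, adjusted p = 8.06e-05) and was higher in Space than in Ground pups in replicates 4 to 6 (1.87 ± 0.28, adjusted p = 0.0279), 1 of 3 genes that edgeR called among all genes in that comparison. This call was lost with limma voom (2.05, adjusted p = 0.076) and with the set fitted alone (1.86, adjusted p = 0.413), each of which called 0 of all genes, and held without the libraries rich in Serpina6 (2.38, adjusted p = 0.0315). Creb3l3, a regulator of Apoa4, Apoa5 and Apoc2 in liver, rose in Space (0.77, adjusted p = 0.00444) and Ground pups (0.79, adjusted p = 0.00283). Prox1 rose in both (0.83, adjusted p = 0.000546, and 0.80, adjusted p = 0.000424), Foxo1 rose in Ground pups (0.52) and Srebf2 fell there (-0.88). For replicates 1 to 3, Prox1 was lower in Space pups than in BDF1 (-1.01, adjusted p = 0.000141) and than in Ground pups (-0.93, adjusted p = 0.00439), the 1 gene that edgeR called between Space and Ground pups in that set. The latter did not pass with total counts (-0.98, adjusted p = 0.0547), which called 0 of all genes, and passed with DESeq2 and limma voom. Foxo1 (0.63 and 0.68) and Cebpb (1.42 and 1.39) rose and Nr2f2 (-0.71 and -0.75) fell in both, and Nr1d2 (1.23) rose in Space pups. All of these regulators but Srebf1, Foxa3 and Nr0b2 were chosen after their values had been seen. Without the libraries rich in Serpina6 the Ground calls of Foxo1 (0.47, adjusted p = 0.111) and Creb3l3 (0.43, adjusted p = 0.0895) were lost in replicates 4 to 6, and with the set fitted alone those of Foxo1 (adjusted p = 0.0507) and Srebf2 (adjusted p = 0.0586). With total counts those of Foxo1 (0.03), Creb3l3 (0.29) and Prox1 (0.34) were lost there, as were Foxo1 in both kinds of pup, Nr1d2 in Space and Nr2f2 in Ground pups (adjusted p from 0.0581 to 0.0849) in replicates 1 to 3. Over all the lists, 11 of the 21 genes named as called in Ground and 10 of the 11 named in Space replicates 4 to 6 against BDF1 still passed without those libraries, and 9 and 8 with the set fitted alone.

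Of 7 measured apolipoprotein genes outside the 10 members and of 4 genes of Apob mRNA editing, none passed in any of the 6 comparisons of groups within a replicate set. The median log2 change of the former was 0.30 in Space and 0.15 in Ground replicates 4 to 6. Markers of other cell types had the following summed levels beside the rise of the members. The 6 Kupffer cell markers summed to 121 to 165 CPM in Space and 108 to 167 CPM in Ground against 59.3 to 129 CPM in BDF1 replicates 4 to 6, and the 5 erythroid genes to 201 to 718 and 102 to 586 against 32.3 to 88.1 CPM. The 7 exocrine pancreas genes went the other way, with 9.31 to 18.7 and 6.77 to 12.6 CPM in the pups against 33.2 to 38.9 CPM in BDF1, and Cpb1 and Pnlip were at 0 in all libraries. The Kupffer ranges of the groups overlapped, and the erythroid and pancreas ranges of the pups did not overlap those of BDF1. Cholangiocyte markers summed to 22.2 to 23.6 CPM in Space, 12.6 to 19.2 CPM in Ground and 22 to 25 CPM in BDF1, so that Ground lay below BDF1. Endothelial markers summed to 55.8 to 71.6, 84.5 to 105 and 46.9 to 98.6 CPM and stellate cell markers to 134 to 170.2, 150.2 to 200 and 126 to 183 CPM in these groups, with overlap between pups and BDF1. The part of these cells, of the Alb share and of Serpina6 in the changes of the members was not tested.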

How the data were processed

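RNA from 18 livers was sequenced as stranded mRNA libraries. The labels name the Illumina Stranded mRNA Prep kit, whereas the methods of the study name a TruSeq stranded kit and single reads, and which holds for these libraries was not settled. The deposited values are whole-number counts per gene, which per the labels and the methods the authors made from reads mapped to mm10. The submitters' processing notes name bcl2fastq 2.20, cutadapt 4.6, HISAT2 2.2.1 and HTSeq 2.0.2, and the strand setting and the treatment of shared reads are not given in the sources used here. Genes were filtered with filterByExpr, which left 13356, and tested with edgeR 4.0.16 (quasi-likelihood F-test, TMM scaling, R 4.3.3) in 1 model with a mean for each of the 6 combinations of group and replicate set. P-values were adjusted by Benjamini-Hochberg over all genes tested, and a call means an adjusted p under 0.05. DESeq2 1.42.0 and limma 3.58.1 (voom) were alternatives, beside other scalings, filters, thresholds and omitted libraries. Standard errors were derived from the F statistic, with 2 as the prior count for log2 CPM.

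The 10 members and the gene lists were chosen with earlier results of these data known. All members were named. From each list up to 3 genes with the largest change among those called in a comparison within a replicate set and averaging at least 1 CPM were named, and for each member the 2 genes of most similar pattern. Some genes of the uptake, lipase and regulator lists are not reported here, so no counts are given for those lists. Total counts of 15407450 to 20562351 limit the precision of low genes. All pairs of libraries differed by a chi-square of at least 10.5 per gene, so none agreed within sampling noise. Samples were grouped by their labels, and since nothing says which pups shared a parent, p-values measure the spread between these libraries. Shared replicate numbers were not used to pair the libraries in the main fit, and whether they stand for a shared litter or batch was not tested. The fit was tested on simulated counts before use. It recovered 66.5% of 200 changes of 2-fold and 92% of 200 changes of 4-fold, with 6 and 9 false calls. A change of 2-fold can thus fail to pass. The simulated counts held no libraries apart from the rest, like those rich in Serpina6.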

Additional observations from a re-analysis of the deposited data

Results flagged for a closer look

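In the 6 Ground libraries, Apoa5 of replicate 6 stood apart at 1605 CPM against 975 CPM for the next highest, a gap of 0.717 of the whole range. In the 6 Space libraries, Apoc2 of replicate 4 stood apart at 984 CPM against 278 CPM, a gap of 0.858. The critical value for 6 samples was passed by these 2 of 30 sets examined. Chance would give about 1.5 if the 6 libraries were draws from 1 normal population. Replicates 1 to 3 and 4 to 6 of a group differed, so that figure is only a rough guide. The change of Apoa4 against BDF1 differed between replicates 4 to 6 and replicates 1 to 3 by 2.05 on the log2 scale in Space and by 1.69 in Ground pups, and that of Apoa1 by 1.52 in Ground pups, each past an adjusted p of 0.05 in the test of that difference in edgeR.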

How the results depend on the processing

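Apoa1 and Apoa4 passed against BDF1 in replicates 4 to 6 in both kinds of pup under all 11 alternatives and all 18 omissions of 1 library, and no called change of a member turned its sign, whereas with total counts those of Lrpap1, Lmf1 and Pla2g12b did. Of 10 members, the larger moves of the counts called were as follows, with calls over all genes in brackets, where the cause was not tested. At an adjusted p under 0.01 they were 3 in Space (482) and 3 in Ground replicates 4 to 6 against BDF1 (772), and 0 for the difference between the sets in Ground pups (63). At that threshold they were 1 and 0 between the sets within Ground pups (1266) and within BDF1 (848), and 2 and 2 over all replicates in Space (553) and Ground pups (675). With each set fitted alone they were 1 in Space replicates 1 to 3 (1090) and 2 in Space (570) and 3 in Ground replicates 4 to 6 (895). Without the 3 libraries rich in Serpina6 they were 2 and 1 in replicates 1 to 3 of Space and Ground pups, 3 in Ground replicates 4 to 6, 4 and 1 for the difference between the sets in Space and Ground pups, and 1 and 4 between the sets within Ground pups and within BDF1. Over all genes that fit called 1207 and 709 in replicates 1 to 3 of Space and Ground pups, 775 for the difference in Space pups and 2844 within BDF1. DESeq2 called 2 (990) and 1 (616) in replicates 1 to 3, 2 (849) and 4 (782) for the difference between the sets and 2 within BDF1 (2330). Limma voom called 4 in Space replicates 1 to 3 (2369), 2 for the difference in Space pups (1515) and 4 within BDF1 (3755). Total counts gave 3 for the difference in Space pups (539) and 1 over all replicates in Ground pups (4638). TMM without the 10 most abundant genes (430) and no filter on low counts (492) each gave 2 for the difference in Space pups. Total counts without those 10 genes, added after seeing the data, gave 2 there (346) and 2 within BDF1 (1632). Group alone with no term for the sets gave 1 in Space (488) and 2 in Ground pups (489). Smaller moves included 7 in Space replicates 4 to 6 with limma voom (2484) and 4 in Ground replicates 4 to 6 with total counts (6136). For the difference in Ground pups, total counts (1499) and limma voom (739) each gave 3.

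When 1 library was omitted, the counts lay at 0 in all comparisons of Space with Ground pups and in Ground replicates 1 to 3 against BDF1, from 0 to 1 in Space replicates 1 to 3 (1 without Ground replicate 2), from 3 to 6 in Space replicates 4 to 6 (3 without Space replicate 4 or BDF1 replicate 5) and from 4 to 6 in Ground replicates 4 to 6. They lay from 1 to 3 for the difference between the sets in Space pups (3 without Ground replicate 4, 2 without Ground replicate 6), from 1 to 3 in Ground pups (1 without BDF1 replicate 2, 5 or 6), and, between the sets, from 2 to 4 within Space pups, 2 to 6 within Ground pups and 0 to 2 within BDF1. Over all replicates they lay from 3 to 5 in Space and from 3 to 5 in Ground pups.

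Over all genes, the calls in Space replicates 1 to 3 against BDF1 went from 620 to 2369 with limma voom, 990 with DESeq2, 1090 with the set fitted alone and 1207 without the Serpina6-rich libraries, and in Ground pups from 257 to 1097, 616, 560 and 709. In Space replicates 4 to 6 they went from 1592 to 4980 with total counts, 2484 with limma voom, 570 with the set fitted alone and 1359 without the Serpina6-rich libraries. In Ground replicates 4 to 6 they went from 2031 to 6136 with total counts, 2167 with limma voom and 895 with the set fitted alone. Over all replicates they went from 1724 to 4512 with total counts and 488 with group alone in Space pups, and from 1950 to 4638 and 489 in Ground pups.

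With the replicate number as a term (replicate block), 4 members passed in each kind of pup in replicates 4 to 6, 1 for the difference between the sets in each, and 5 and 3 over all replicates in Space and Ground pups, and the calls over all genes in replicates 4 to 6 were 939 and 1383. The calls lost were those of Apoa2 in Space (1.01, adjusted p = 0.0706) and Ground pups (0.88, adjusted p = 0.09), Apoc2 in Space pups (1.63, adjusted p = 0.115) and Apoc3 in Ground pups (0.56, adjusted p = 0.0638) in replicates 4 to 6, the difference of Apoa1 in Ground pups (1.48, adjusted p = 0.0545) and Apoa2 in Ground pups over all replicates (0.65, adjusted p = 0.0787). Of the other genes named as called against BDF1, 9 of 11 in Space and 15 of 21 in Ground replicates 4 to 6 passed with the block, Lipg and Lmf1 being lost in Space and P4hb, Pla2g12b, Dgat1, Lcat, Vldlr and Lpl (2.03, adjusted p = 0.0558) in Ground pups. In replicates 1 to 3, 6 of 11 in Space and 3 of 7 in Ground pups passed, without Sar1b, Scarb1, Lrp1, Angptl8 and Nr2f2 in the former and Aadac, Ces1d, Angptl4 and Nr2f2 in the latter. Between Space and Ground pups neither Nr0b2 (1.79, adjusted p = 0.111) nor Prox1 (-0.93, adjusted p = 0.0506) passed. Same-numbered libraries of different groups deviated with a correlation from -0.601 to 0.251, so the numbers are not evidence of pairing. The block could not be fitted between the sets within a group, where no number is shared.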
